A study of Homo sapiens with 6 samples.

Results

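Oxidative phosphorylation subunits are the proteins of the 5 complexes with which mitochondria respire and make ATP. The genes described here are nuclear genes whose symbols match the naming pattern of these subunits. They were chosen by a rule on symbols that used no measured values, though it was written with earlier results of these data known. In the count files 94 symbols matched the naming pattern of these subunits, 5 antisense or pseudogene symbols were removed, and 89 of the 24462 symbols remained. By symbol prefix, 39 belonged to complex I (NDUF genes), 4 to complex II (SDH genes), 10 to complex III (UQCR genes and CYC1), 17 to complex IV (COX genes) and 19 to complex V, the ATP synthase (ATP5 genes). The pattern misses some subunits with other symbols, such as NDUFAB1, and takes in ATP5S and ATP5SL, which are no structural subunits. Of these 89 genes, 84 were among the 16314 genes with enough counts to be tested, and the other 5 were all complex IV isoforms with almost no counts. The cells were cultures labelled PC3, a human prostate cancer line that was derived from a metastasis to bone. Total RNA was sequenced from 3 samples transfected with non-targeting siRNA (si-Control) and 3 transfected with siRNA against CITED2, a transcriptional coregulator (si-CITED2), all at 80 nM for 72 h. The comparison asks how a knockdown of CITED2 changes gene expression. The study describes the transfections as repeated independently, and the labels do not say on which days or passages.

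Reads counted on genes ranged from 19508925 to 28936374 per library, so that 3 counts, the smallest number taken as detectable, corresponded to between 0.104 and 0.154 CPM (reads scaled to a common library size). The targeted mRNA was not lower in the libraries labelled as knockdown. The study checked the knockdown of the protein by immunoblot, and protein was not measured in these files. CITED2 had 859, 892 and 773 normalized counts in si-Control replicates 1 to 3 and 1084, 921 and 984 in the libraries labelled si-CITED2, where every library was above every si-Control library. The log2 fold change was 0.24 (adjusted p = 0.0363 by edgeR's quasi-likelihood test), and an exact two-sided permutation test gave p = 0.1, the smallest that 3 against 3 allows. The call ended with library size alone as the scaling (adjusted p = 0.0518) and without si-Control replicate 1 (0.0536), si-Control replicate 3 (0.141), si-CITED2 replicate 1 (0.154) or si-CITED2 replicate 3 (0.0846), while the direction stayed. Every direction given below is therefore the direction between libraries as labelled. The epithelial keratin genes KRT8 and KRT18 had at least 11027 normalized counts in every library. The prostate gene KLK3 had at most 2 counts in a library. CTNNA1, which is known to be deleted in PC3, had a mean of 11023 normalized counts in si-Control. This count differs from what is known of PC3, and the identity of the cells was not tested. Of 6 markers of blood, endothelial and stromal cells, none had more than 11 counts in a library.

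Complexes I to IV form the respiratory chain of the inner mitochondrial membrane. Complexes I and II take electrons from NADH and succinate, complex III passes them to cytochrome c, and complex IV passes them on to oxygen, while complex V uses the proton gradient that complexes I, III and IV build to make ATP. Each complex except complex II also holds subunits encoded in the mitochondrial genome. A list of 13 such genes matched 0 symbols in the count files, so they were not analysed here. The nuclear subunits include the core proteins that carry out electron transfer or ATP synthesis, and smaller accessory proteins that hold the complexes together.

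The mRNAs of these complexes differed little between the 2 sets of libraries. In the libraries labelled si-CITED2, 5 genes were higher and 1 was lower at an adjusted p under 0.05 by edgeR's quasi-likelihood test, and 78 of the 84 did not pass. Those 6 genes were 7.14% of the genes fitted, whereas 17.4% of all 16314 genes tested passed. By direction the background was 9.36% of all genes higher and 8.09% lower. The median log2 fold change was 0.06 over the 84 genes and 0.00 over all genes tested, and the differences ran from -0.41 (COX6B2) to 0.40 (UQCRC1). A positive difference was found for 60 of the 84 genes (71.4%), against 49.7% of all genes. For 68 of them (81.0%) the 95% interval of the difference lay within a fold of 1.25 in either direction, which held for 42.1% of all genes tested. The 84 genes had a median standard error of 0.07 on the log2 scale, against 0.09 over all genes.

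**Figure D1:**
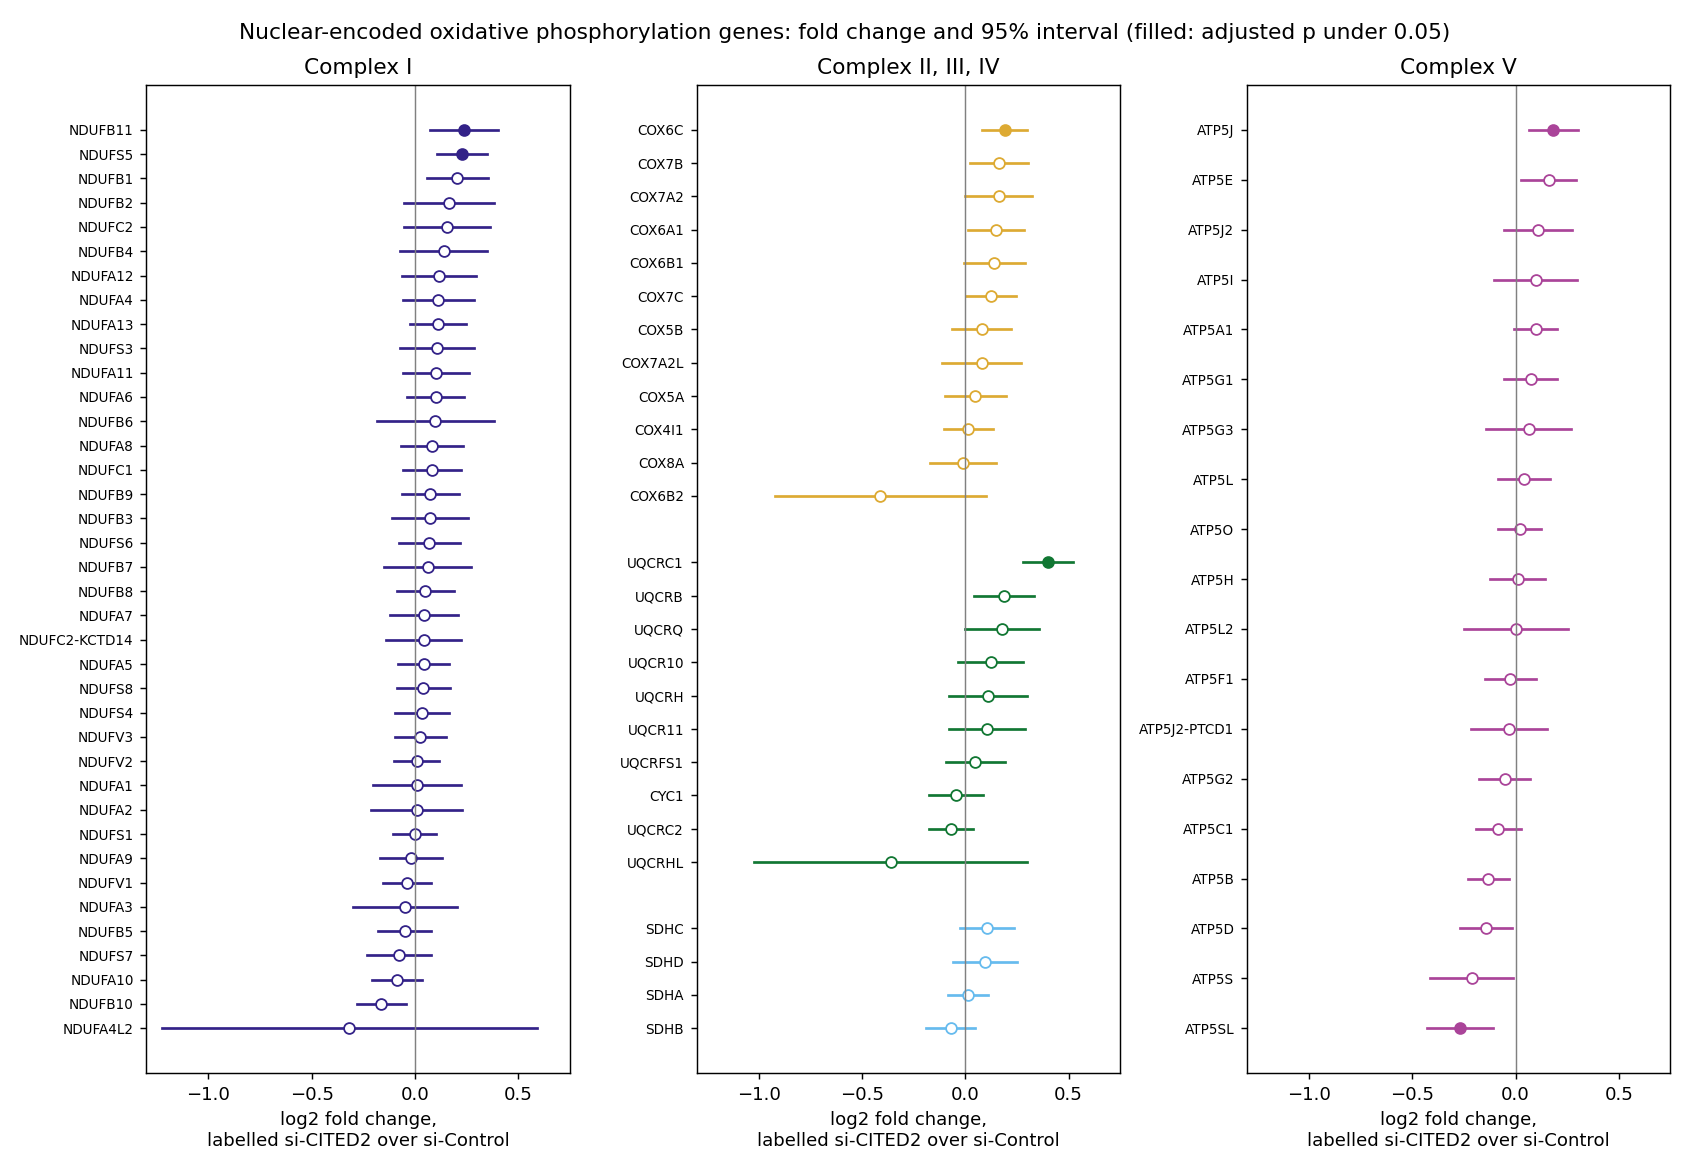
Log2 fold change of 83 of the 84 fitted genes (horizontal axis, libraries labelled si-CITED2 over si-Control), by complex. Points are edgeR estimates, lines are 95% intervals, and filled points passed an adjusted p of 0.05: 5 lie right of 0 and ATP5SL lies left of it, and the widest intervals belong to NDUFA4L2, UQCRHL and COX6B2, which had few counts.

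**Figure D2:**
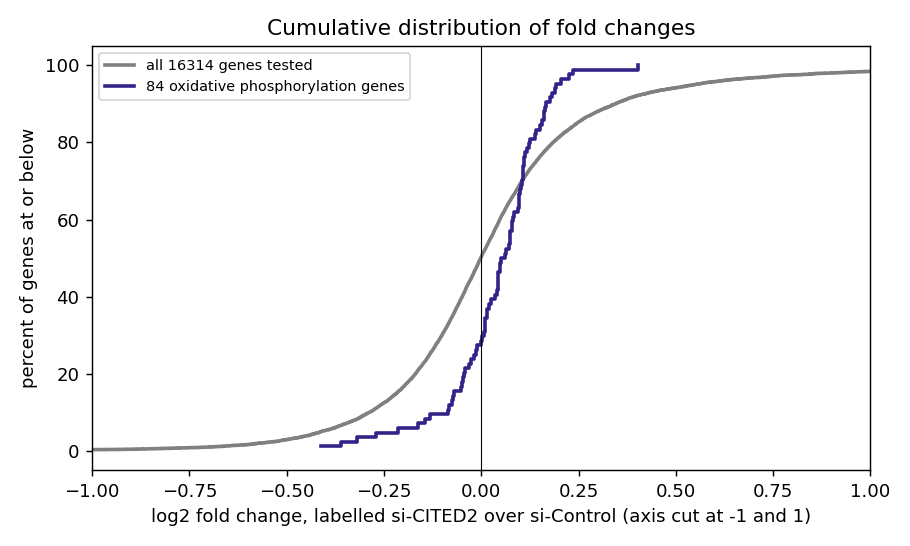
Percent of genes (vertical axis) at or below each log2 fold change (horizontal axis), for all 16314 genes tested and for the 84 oxidative phosphorylation genes. The curve of the 84 genes is steeper and crosses its midpoint at 0.06, close to the 0.00 of all genes.

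The control libraries were spread more widely in these genes than the groups were apart. The median gene stood 0.13 above its group mean (log2 scale) in si-Control replicate 1, 0.03 below it in replicate 2 (-0.03) and further below it in replicate 3 (-0.09). In the libraries labelled si-CITED2 the same medians were -0.02, 0.00 and 0.02. Thus si-Control replicates 1 and 3 lay further apart than the median difference between the groups. Replicate 1 was the highest of the 3 si-Control libraries for 74 of the 84 genes (88.1%), against 35.5% of all genes tested. Short mRNAs in general showed the same order. Of 681 other genes with a transcript under 1000 bases, 65.9% were highest in si-Control replicate 1, against 33.8% of 12770 other genes with longer transcripts. Of the 84 oxidative phosphorylation genes, 44 had transcripts under 1000 bases, and 42 of these (95.5%) were highest in that library. So were 32 of the 40 with longer transcripts (80.0%), against the 33.8% of other genes of that length. The part of this spread in the differences between groups was not tested.

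The counts of calls changed when single libraries of either group were left out, and the cause was not tested. Without si-Control replicate 1, 17 genes were higher and 0 lower among the 84 (20.2% called, with 17.4% of all genes called and 9.26% called higher), and the median difference was 0.13. Without si-Control replicate 3, 1 gene was higher and 2 were lower (13.7% of all genes called), and the median was 0.01. Without si-Control replicate 2, 1 gene was higher and 0 were lower (12.5% of all genes called). Without si-CITED2 replicate 1, 4 genes were higher and 0 lower (14.6% of all genes called), and without si-CITED2 replicate 2, 2 were higher and 0 lower (12.3% of all genes called). Without si-CITED2 replicate 3, 5 were higher and 1 lower (12.5% of all genes called). UQCRC1 was the one gene called in all 6 of these fits.

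Other settings were tried with all 6 libraries. DESeq2 gave 5 genes higher and 2 lower (17.2% of all genes called), library size alone as the scaling gave 3 and 3 (17.9%), no filter on low counts gave 7 and 2 (13.8%), and replicate number as a block gave 5 and 1 (15.7%).

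**Figure D3:**
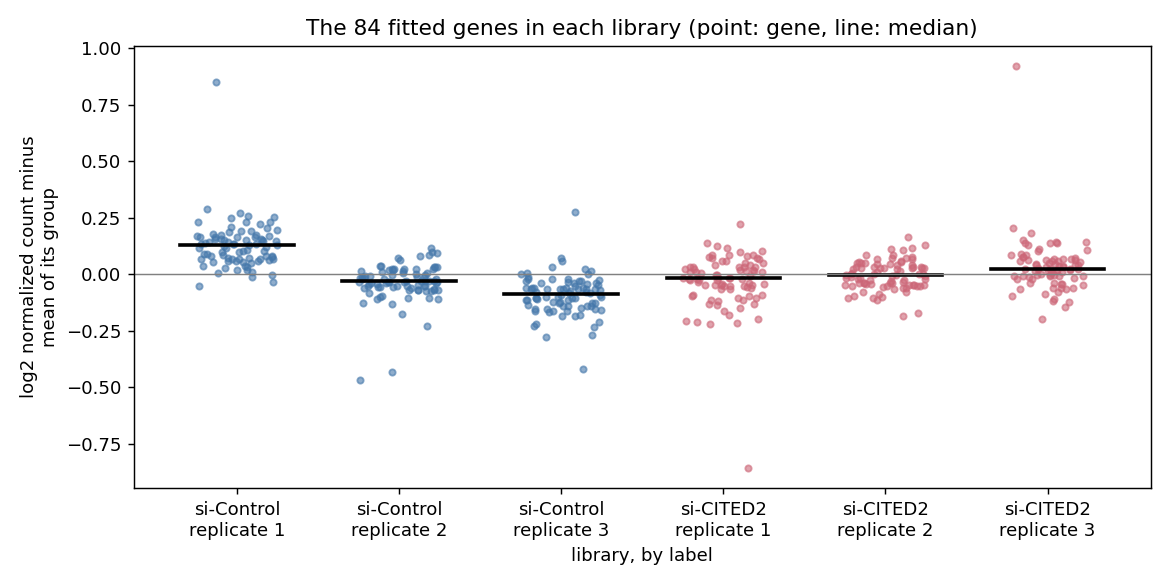
Log2 normalized count of each of the 84 fitted genes minus the mean of its group (vertical axis), in each of the 6 libraries. Points are genes and lines are medians; si-Control replicate 1 lies above 0 for most genes, with a median of 0.13, and the 3 libraries labelled si-CITED2 have medians between -0.02 and 0.02.

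Summed over the genes of a complex, the levels overlapped between the groups for all 5 complexes. Complex III genes summed to 29684, 25915 and 24753 normalized counts in si-Control replicates 1 to 3 and to 27876, 30169 and 30878 in the libraries labelled si-CITED2, a mean that was 10.7% higher. The highest si-Control library lay above the lowest library labelled si-CITED2. The mean sum differed by 7.34% for complex IV (33603 ± 2687 against 36071 ± 970 normalized counts, SD, n = 3), by 2.88% for complex I (60940 ± 4098 against 62695 ± 565), by 1.40% for complex II (12856 ± 329 against 13035 ± 443) and by 0.122% for complex V (60125 ± 3213 against 60199 ± 1672). In complexes I, III, IV and V the SD was larger in si-Control than in the libraries labelled si-CITED2. For complex III it was 2578 against 1569. In all 5 complexes si-Control replicate 1 was the highest control. All 89 genes together held between 0.788% and 0.883% of the counts of a library.

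**Figure D4:**
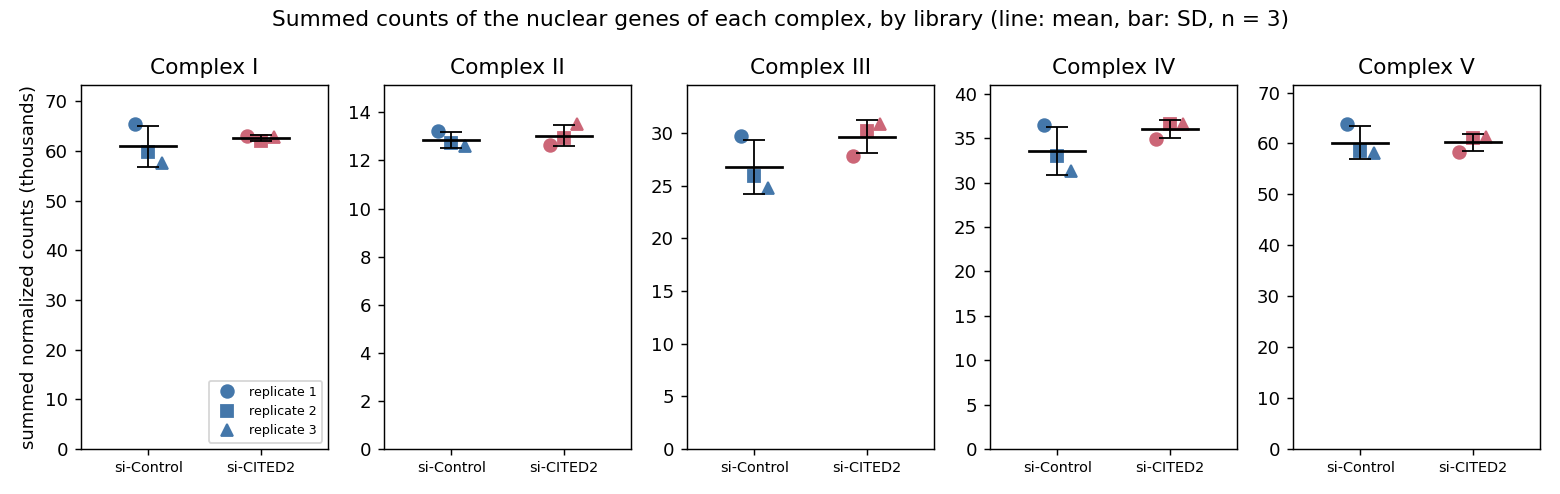
Summed normalized counts (axis in units of 1000) of the genes of each complex in each library. Symbols mark the replicate number, lines the mean and bars the SD (n = 3 per group); the groups overlap in every complex, and complex III shows the largest difference between the means.

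In complex III, 1 of 10 genes was higher and none was lower (10.0% called, against 17.4% of all genes called). The median log2 fold change was 0.11. UQCRC1 encodes core protein 1, a large subunit on the matrix side of the complex. It had 3523, 3303 and 3000 normalized counts in si-Control replicates 1 to 3 and 4456, 4268 and 4273 in the libraries labelled si-CITED2. All 3 of the latter lay above every si-Control library, by a gap larger than the spread within either group. UQCRC1 rose by a log2 fold change of 0.40 (SE 0.06, 95% interval 0.28 to 0.52, adjusted p = 9.34e-05 by edgeR), or 32.1%, and its p ranked 523 among the 16314 genes tested. Leaving out single libraries gave values from 0.34 to 0.46.

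Its partner UQCRC2, core protein 2, was chosen for comparison after its values had been seen. The 2 core proteins sit side by side in the complex. UQCRC2 had 2942 ± 91.3 normalized counts in si-Control and 2804 ± 80.1 in the libraries labelled si-CITED2 (SD, n = 3), a log2 fold change of -0.07 (95% interval -0.18 to 0.04, adjusted p = 0.409 by edgeR). The ratio of UQCRC1 to UQCRC2 counts was 1.17, 1.16 and 1.01 in si-Control replicates 1 to 3 and 1.56, 1.57 and 1.51 in the libraries labelled si-CITED2, with no overlap. Its log2 mean differed by 0.48 (exact two-sided permutation test p = 0.1, the smallest that 3 against 3 allows). The other members of complex III with a catalytic role gave differences near 0. CYC1, which encodes cytochrome c1, had a log2 fold change of -0.04, and UQCRFS1, the iron-sulfur protein, had 0.05. The small accessory subunits UQCRB, UQCRQ, UQCR10, UQCR11 and UQCRH had values from 0.11 to 0.19, none of which passed the test. UQCRHL, a near-identical copy of UQCRH without introns, had between 36.2 and 88.0 normalized counts, and reads of the 2 genes may not have been told apart. Its log2 fold change was -0.36 (adjusted p = 0.498), and 0.21 without si-Control replicate 1, the library with 88.0.

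The stretch before the start of UQCRC1 is shown because this gene had the largest change among the 6 called genes, that of ATP5J because it held motifs of 3 factors known for respiratory genes, that of ATP5SL because this was the one gene called lower, and that of C15orf48 because its product can stand in complex IV. They are 250 bases upstream of the start, 5′ to 3′ on the strand of the gene, from RefSeq annotation of GRCh38.p14. UQCRC1 lies at chr3:48609647-48609896 (minus strand), ATP5J at chr21:25735055-25735304 (minus strand), ATP5SL at chr19:41439538-41439787 (minus strand) and C15orf48 at chr15:45430360-45430609 (plus strand). Capitals mark the motif letters searched, which are given with the promoter counts further on.
UQCRC1: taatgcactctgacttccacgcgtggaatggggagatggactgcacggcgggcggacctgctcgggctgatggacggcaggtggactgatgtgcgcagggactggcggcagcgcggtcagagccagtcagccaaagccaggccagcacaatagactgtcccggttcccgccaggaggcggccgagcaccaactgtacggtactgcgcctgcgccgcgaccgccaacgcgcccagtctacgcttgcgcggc
ATP5J: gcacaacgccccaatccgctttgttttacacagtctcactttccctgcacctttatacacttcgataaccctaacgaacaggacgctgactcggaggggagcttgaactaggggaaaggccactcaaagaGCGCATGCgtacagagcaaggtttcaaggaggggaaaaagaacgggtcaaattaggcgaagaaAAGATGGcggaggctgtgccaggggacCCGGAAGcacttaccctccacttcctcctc
ATP5SL: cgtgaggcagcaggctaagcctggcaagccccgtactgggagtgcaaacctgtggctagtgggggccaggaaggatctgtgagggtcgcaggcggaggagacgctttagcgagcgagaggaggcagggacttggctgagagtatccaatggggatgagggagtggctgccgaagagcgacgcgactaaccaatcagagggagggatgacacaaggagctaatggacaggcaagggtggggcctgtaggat
C15orf48: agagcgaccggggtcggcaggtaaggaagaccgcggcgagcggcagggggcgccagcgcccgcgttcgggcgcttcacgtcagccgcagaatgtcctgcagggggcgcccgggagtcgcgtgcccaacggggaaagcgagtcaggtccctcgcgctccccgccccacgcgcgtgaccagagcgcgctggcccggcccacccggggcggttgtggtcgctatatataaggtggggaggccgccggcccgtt

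In complex I, 2 of 39 genes were higher and none was lower (5.13% called, against 17.4% of all genes called). The median log2 fold change was 0.05. NDUFS5 encodes a small accessory subunit. It had 2728, 2510 and 2447 normalized counts in si-Control and 3183, 2904 and 2913 in the libraries labelled si-CITED2, so that the groups did not overlap. It rose by a log2 fold change of 0.23 (SE 0.06, 95% interval 0.11 to 0.35, adjusted p = 0.0107 by edgeR). The call ended, narrowly, without si-Control replicate 2 (adjusted p = 0.0552), si-Control replicate 3 (0.0505) or si-CITED2 replicate 1 (0.0503).

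NDUFB11, an accessory subunit of the membrane arm encoded on the X chromosome, was the other. It had 541, 494 and 502 normalized counts in si-Control and 602, 640 and 569 in the libraries labelled si-CITED2. The groups did not overlap, but the gap between them was smaller than the spread within either. Its log2 fold change was 0.24 (SE 0.08, 95% interval 0.07 to 0.40, adjusted p = 0.0448 by edgeR). This call did not hold with DESeq2 (adjusted p = 0.0674), with library size alone as the scaling (0.0603) or with replicate number in the model as a block (0.0636). It also ended without si-Control replicate 2 (0.159), si-Control replicate 3 (0.102), si-CITED2 replicate 1 (0.0854) or si-CITED2 replicate 2 (0.208).

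The core subunits of the complex I arm that takes up electrons differed little. NDUFV1, which binds NADH, had 2545 ± 92.6 normalized counts in si-Control and 2476 ± 129 in the libraries labelled si-CITED2 (SD, n = 3). NDUFS1 had 3482 ± 27.3 and 3479 ± 143, and NDUFV2 had 5114 ± 265 and 5148 ± 180. The log2 fold changes of NDUFS1, NDUFS3, NDUFS7, NDUFS8, NDUFV1 and NDUFV2 lay between -0.08 and 0.11, and none passed. The 95% interval of the difference for NDUFS1 ran from -0.10 to 0.10 on the log2 scale. Just outside the threshold were NDUFB1 (log2 fold change 0.21, adjusted p = 0.0530) and NDUFB10 (-0.16, adjusted p = 0.0583), accessory subunits with differences of opposite sign and no overlap between the groups. These core and near-threshold genes were chosen after their values had been seen. Over all 84 genes, 7 had every library labelled si-CITED2 above every si-Control library and 5 had every one below, against 16.4% and 16.1% of all genes tested.

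In complex II, succinate dehydrogenase, no gene passed, and the intervals of all 4 lay within a fold of 1.25. SDHA, the flavoprotein that oxidizes succinate, had 7839, 7504 and 7725 normalized counts in si-Control and 7662, 7637 and 7987 in the libraries labelled si-CITED2. These ranges overlapped almost fully, and the log2 fold change was 0.01 (95% interval -0.08 to 0.11, adjusted p = 0.884 by edgeR). SDHB, the iron-sulfur subunit, had a log2 fold change of -0.07 (adjusted p = 0.452). The membrane anchors SDHC and SDHD had 0.11 (adjusted p = 0.279) and 0.09 (adjusted p = 0.443). Copies related to SDHA exist in the genome, and how reads shared with them were counted is not known.

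In complex IV, 1 of the 12 fitted genes was higher and none was lower (8.33% called, against 17.4% of all genes called). The median log2 fold change was 0.10. COX6C, a small membrane subunit, had 4333, 4119 and 3959 normalized counts in si-Control and 4573, 4910 and 4692 in the libraries labelled si-CITED2. Every library of the latter group lay above every si-Control library. COX6C rose by a log2 fold change of 0.19 (SE 0.05, 95% interval 0.08 to 0.30, adjusted p = 0.0152 by edgeR). The call ended without si-Control replicate 2 (adjusted p = 0.0616), si-Control replicate 3 (0.0698) or si-CITED2 replicate 2 (0.109).

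Several complex IV subunits exist as a common form and a form of heart, muscle, lung or testis, and in all of these pairs the common form made up nearly all of the mRNA. Levels between genes are compared per kilobase of transcript, with GENCODE 29 lengths. COX4I1 had 11728 normalized counts per kilobase in si-Control, whereas COX4I2, a lung form known to respond to low oxygen, had 2 counts in si-Control replicate 2, 2 in si-CITED2 replicate 1 and 0 in the other libraries. COX6A2, the muscle partner of COX6A1, had 0 counts in all 6 libraries, which allows up to 3 counts in each. COX8C, of testis, had 1 count in all, while COX8A had 1975 normalized counts per kilobase in si-Control. COX7B2 had at most 4 counts and COX7A1, of muscle, at most 11 counts in a library, at or near the limit of detection. No fold change is given for these 5 genes.

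COX6B2, the testis form of COX6B1, was low but present. It had 46.2, 35.4 and 43.5 normalized counts in si-Control and 26.7, 31.5 and 35.1 in the libraries labelled si-CITED2. The groups did not overlap, yet the lowest si-Control library and the highest library labelled si-CITED2 nearly met. The log2 fold change of -0.41 did not pass (SE 0.24, adjusted p = 0.286 by edgeR). The common forms COX4I1 (0.02), COX6A1 (0.15), COX6B1 (0.14), COX7A2 (0.16), COX7B (0.16) and COX8A (-0.01) did not pass either, and COX7A2L, a related protein that joins complexes III and IV into supercomplexes, had 0.08. Without si-Control replicate 1, COX6A1 (adjusted p = 0.0204), COX6B1 (0.0258) and COX7A2 (0.0172) passed.

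NDUFA4 carries a complex I symbol but is known as a subunit of complex IV, and it has a low paralog, NDUFA4L2, and a paralog of another name, C15orf48. NDUFA4 had 998, 863 and 801 normalized counts in si-Control and 1015, 988 and 883 in the libraries labelled si-CITED2. The groups overlapped (log2 fold change 0.11, 95% interval -0.06 to 0.28, adjusted p = 0.401 by edgeR). NDUFA4L2, a target of hypoxia-inducible factor, had between 6.07 and 20.8 normalized counts and a log2 fold change of -0.32 that ranged from -0.88 to -0.03 when single libraries were left out (adjusted p = 0.688).

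C15orf48 is not in the symbol pattern. It encodes a protein that can replace NDUFA4 in complex IV, and it was in a list of related subunits written for comparison. It had 638, 504 and 517 normalized counts in si-Control and 1269, 1272 and 1280 in the libraries labelled si-CITED2. The latter 3 were almost equal and lay far above every si-Control library. C15orf48 rose by a log2 fold change of 1.20 (SE 0.08, 95% interval 1.03 to 1.37, adjusted p = 1.3e-08 by edgeR), and its p ranked 97 of 16314. Leaving out single libraries gave 1.13 to 1.32. Per library, the ratio of C15orf48 to NDUFA4 counts was 0.639, 0.584 and 0.645 in si-Control and 1.25, 1.29 and 1.45 in the libraries labelled si-CITED2, with no overlap (exact two-sided permutation test p = 0.1). This and the 2 other ratios given here were chosen after the values had been seen, and all 3 gave this smallest possible p.

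**Figure D5:**
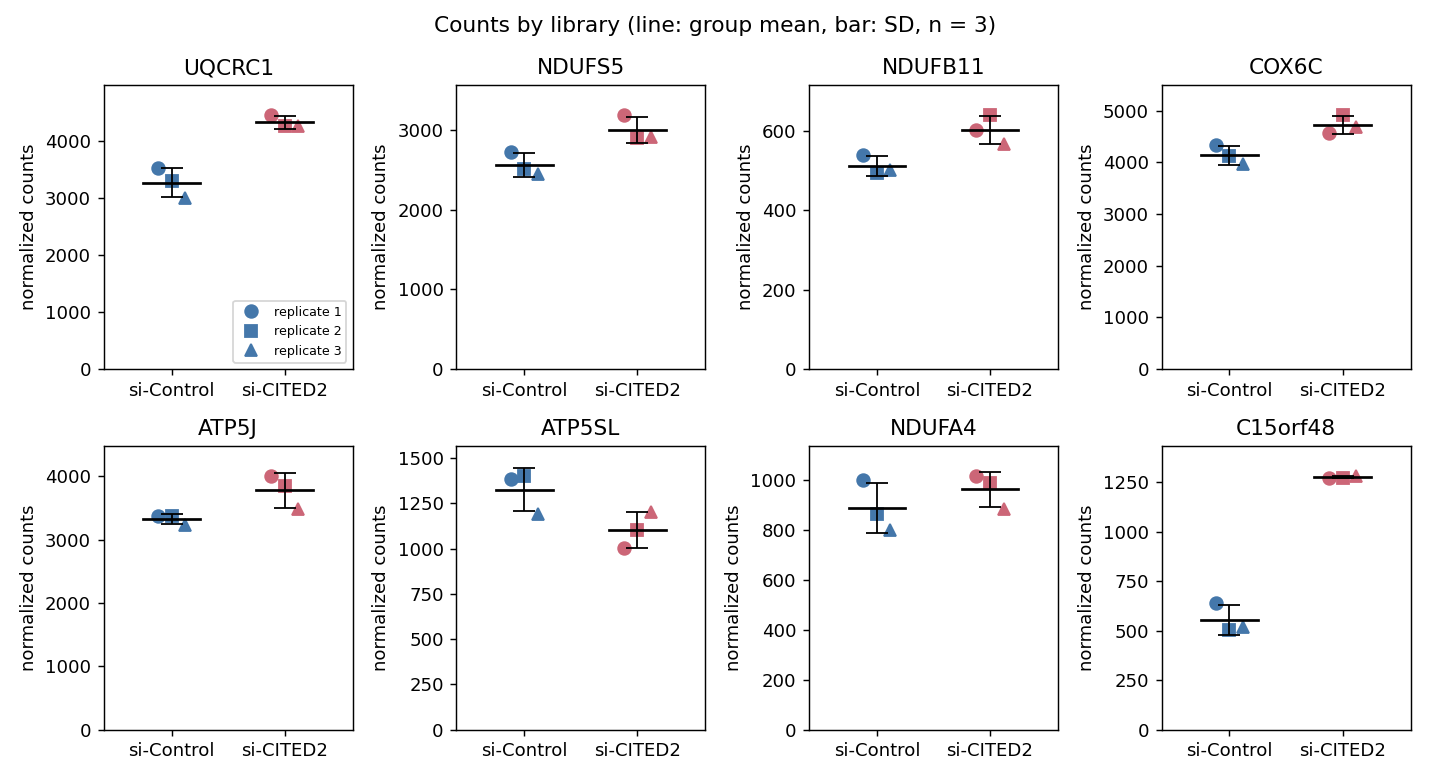
Normalized counts (vertical axis, from 0) in each library for the 6 genes that passed an adjusted p of 0.05, for NDUFA4 and for its paralog C15orf48. Symbols mark the replicate number, lines the mean and bars the SD (n = 3 per group); the groups are apart for UQCRC1 and most clearly for C15orf48, and overlap for ATP5SL and NDUFA4.

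In complex V, 1 of 19 genes was higher and 1 was lower (10.5% called, against 17.4% of all genes called). The median log2 fold change was 0.01. ATP5J encodes coupling factor 6, a part of the stalk that holds the enzyme still. It had 3370, 3372 and 3227 normalized counts in si-Control and 4001, 3847 and 3474 in the libraries labelled si-CITED2, with no overlap. It rose by a log2 fold change of 0.18 (SE 0.06, 95% interval 0.06 to 0.30, adjusted p = 0.0318 by edgeR). The call ended with library size alone as the scaling (adjusted p = 0.0512) and without si-Control replicate 2 (0.0752), si-Control replicate 3 (0.107), si-CITED2 replicate 1 (0.125) or si-CITED2 replicate 2 (0.136).

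ATP5SL was the one gene of the 84 called lower by edgeR, while 24 of the 84 had a negative difference and DESeq2 and library size alone called 2 and 3 lower. Despite its symbol it is not a part of the ATP synthase; it is also named DMAC2 and is known for assembly of complex I. It had 1385, 1400 and 1188 normalized counts in si-Control and 1002, 1100 and 1200 in the libraries labelled si-CITED2. The groups overlapped in 1 pair, si-Control replicate 3 and si-CITED2 replicate 3. Its log2 fold change was -0.27 (SE 0.08, 95% interval -0.43 to -0.11, adjusted p = 0.0212 by edgeR). The call ended without si-Control replicate 1 (adjusted p = 0.0653), si-Control replicate 2 (0.107), si-CITED2 replicate 1 (0.0896) or si-CITED2 replicate 2 (0.0711).

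The catalytic head of the ATP synthase is built of alternating alpha and beta subunits, from ATP5A1 and ATP5B, which were also chosen after their values had been seen. ATP5B had 13446 ± 449 normalized counts in si-Control and 12277 ± 268 in the libraries labelled si-CITED2 (SD, n = 3), with every library of the latter below every si-Control library. Its log2 fold change of -0.13 did not pass (adjusted p = 0.0637 by edgeR), though it did with DESeq2 and with library size alone. ATP5A1 had 7704 ± 351 and 8238 ± 230, with every library labelled si-CITED2 above every si-Control library, and a log2 fold change of 0.10 (adjusted p = 0.210). The ratio of ATP5A1 to ATP5B counts was 0.572, 0.557 and 0.590 in si-Control and 0.667, 0.675 and 0.671 in the libraries labelled si-CITED2. The ratios did not overlap, and their log2 means differed by 0.23 (exact two-sided permutation test p = 0.1, the smallest possible here).

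ATP5G1, ATP5G2 and ATP5G3 encode the same mature subunit c, which forms the rotating ring, with different import sequences. Their levels in si-Control were 2203, 2151 and 1126 normalized counts per kilobase. On this scale ATP5G1 and ATP5G2 were close and ATP5G3 was lower. Their log2 fold changes were 0.07, -0.05 and 0.06, and none passed (adjusted p = 0.467, 0.610 and 0.726 by edgeR). ATP5S, which like ATP5SL is no structural subunit, had a log2 fold change of -0.21 (adjusted p = 0.146). Readthrough symbols share reads with their parent genes and gave values near 0, at 0.04 for NDUFC2-KCTD14 and -0.03 for ATP5J2-PTCD1.

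Other genes of the pathway came from lists made for comparison, and most of them did not pass either. Of 48 assembly factors of the 5 complexes, 0 were higher and 1 was lower (2.08%, against 17.4% of all genes called), with a median log2 fold change of -0.05. That gene was UQCC1, which helps to make cytochrome b of complex III (-0.22, adjusted p = 0.0175 by edgeR). It lost the call without si-CITED2 replicate 2 (adjusted p = 0.0818) or replicate 3 (0.0524). Of 9 further carriers and subunits, C15orf48 alone passed (11.1%, against 17.4% of all genes called). CYCS, which encodes cytochrome c itself, had a log2 fold change of -0.19 (adjusted p = 0.0516 by edgeR). Of 14 enzymes of the tricarboxylic acid cycle, which feeds NADH and succinate to the chain, 3 were lower and 0 higher (21.4% called, against 17.4% of all genes called and 8.09% called lower). IDH3A, a subunit of isocitrate dehydrogenase, fell from 2523 ± 40.1 to 2174 ± 45.2 normalized counts (SD, n = 3; log2 fold change -0.22, adjusted p = 0.00582 by edgeR), and in every fit that left out a library it stayed under 0.05. OGDH, of the oxoglutarate dehydrogenase complex, had -0.19 (adjusted p = 0.0167), which did not hold without si-Control replicate 3 (0.0628), si-CITED2 replicate 2 (0.0584) or si-CITED2 replicate 3 (0.104).

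Of 15 transcription factors and coactivators known to act on respiratory genes, 14 were fitted, 1 was lower and 0 were higher. This was 7.14% called, against 17.4% of all genes called and 8.09% called lower. ESRRA, the estrogen-related receptor alpha, had 691, 735 and 700 normalized counts in si-Control and 550, 602 and 589 in the libraries labelled si-CITED2. The groups were clearly apart, and ESRRA had a log2 fold change of -0.29 (SE 0.07, adjusted p = 0.00872 by edgeR). Without si-Control replicate 2 its adjusted p was 0.0504. NRF1, GABPA, YY1 and TFAM, which act on nuclear respiratory genes or on mitochondrial DNA, had log2 fold changes of 0.03, 0.05, 0.02 and -0.05, with no call. Of the 14 fitted genes, 9 were negative and 5 positive (35.7%, against 49.7% of all genes), with a median log2 fold change of -0.10. Among the assembly factors 35.4% were positive, as were 35.4% of the genes of the large mitochondrial ribosomal subunit. These shares were not tested. The coactivator PPARGC1A had between 2 and 12 counts in a library. Of 48 proteins of the large mitochondrial ribosomal subunit, which translates the mitochondrial mRNAs, 3 were higher and 3 lower. This was 12.5% called, against 17.4% of all genes called, and the median was -0.02. MRPL52 (0.29, adjusted p = 0.00249) and MRPL15 (0.19, adjusted p = 0.0341) were the first of the rises by adjusted p, and MRPL4 (-0.24, adjusted p = 0.00488) and MRPL12 (-0.20, adjusted p = 0.0214) were the first of the falls. MRPL52 and MRPL4 passed in every fit that left out a library. MRPL15 passed in 1 of the 6, the one without si-Control replicate 1, with adjusted p between 0.0675 and 0.125 in the other 5. MRPL12 did not pass without si-Control replicate 1 (0.0683), si-CITED2 replicate 2 (0.0933) or si-CITED2 replicate 3 (0.127).

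Short motifs known from respiratory genes stood before the starts of a minority of the genes. RefSeq promoters of GRCh38.p14 matched 70 of the 89 genes, and the 250 bases upstream were searched on both strands for GCATGCGC (NRF1), CCGGAAG (ETS factors such as GABPA), AAGATGG (YY1) and AAGGTCA (ERR receptors such as ESRRA). The NRF1 letters were found in 13 of the 70 genes (18.6%), against 3.22% of 27305 genes. The ETS letters were found in 17 (24.3%, against 10.2%), the YY1 letters in 5 (7.14%, against 4.49%) and the ERR letters in 7 (10.0%, against 4.22%). The NRF1 and ETS shares thus lay above those of all genes. The YY1 share was near that of all genes, the YY1 and ERR counts were small, and none of these shares was tested. Among the 4 called genes with a promoter (UQCRC1, NDUFB11, ATP5J and ATP5SL), ATP5J alone held the NRF1, ETS and YY1 letters, and none held the ERR letters. ATP5J has a second annotated start, whose window held the ETS and YY1 letters and not those of NRF1. The capitals in its sequence above mark them in that order: NRF1, then YY1, then ETS nearest to the start. A match of letters is a description and does not show binding.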

How the data were processed

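RNA-seq libraries were prepared from total RNA of the cells labelled PC3 with a SMARTer mRNA kit. Per the submitters' processing notes, reads were handled with TopHat on hg19, and edgeR was used. The counting program, annotation, strand setting and versions are not given in the sources used here. The deposited files hold raw read counts per gene symbol, 1 file per library. Of 25737 rows, 1275 repeat rows of a symbol were left out (0.0821% of counts), keeping the row with most counts. Genes passing filterByExpr were fitted with TMM scaling and edgeR 4.0.16's quasi-likelihood test in R 4.3.3, with Benjamini-Hochberg adjustment over all 16314 genes. Normalized counts are counts divided by TMM-scaled library size, at the mean size. Alternatives were DESeq2 1.42.0, other scalings, other filters, summed repeat rows, a replicate block and leaving out each library. Intervals and limits of detection cover the spread between libraries or counting error only.

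Named genes were those called, the extremes of each complex, isoform sets, complex II and up to 2 per direction from each list. The members and lists were chosen with earlier results of these data known. On simulated counts for this comparison (16178 genes), 148 of 200 planted changes were recovered and 9 unchanged genes were called. The smallest planted log2 change was about the size of that of UQCRC1, and recovery of smaller changes was not tested. Replicate numbers did not pair the libraries, with correlations of -0.04, 0.03 and -0.01. Transcript lengths came from GENCODE 29, and 82.9% of fitted genes had one. Promoters came from RefSeq (GRCh38.p14), and no coordinates were converted. Values of some single genes are not reported here.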

Additional observations from a re-analysis of the deposited data

How the results depend on the processing

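UQCRC1 passed in every alternative, and the positive median of the 84 genes stayed positive in all of them. The number of oxidative phosphorylation genes called lower was 1, and it became 2 with DESeq2, 3 with library size alone, 2 with no filter on low counts, 0 without ATP5SL and the other genes of doubtful membership, and 0 to 2 when single libraries were left out. The number called higher was 5, and it became 3 with library size alone and 1 to 17 when single libraries were left out, with 17 reached without si-Control replicate 1. The median of complex I was 0.05 and ranged from 0.0078 to 0.13 when single libraries were left out, with 0.13 reached without si-Control replicate 1. The cause was not tested.

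Small differences that had not passed changed sign. When single libraries were left out, log2 fold changes ranged from -0.60 to 0.21 for UQCRHL, from -0.020 to 0.085 for COX4I1, from -0.041 to 0.17 for COX7A2L, from -0.093 to 0.070 for COX8A, from -0.030 to 0.20 for ATP5G3 and from -0.0055 to 0.028 for SDHA. UQCRHL and COX8A turned positive without si-Control replicate 1. With library size alone, COX4I1 gave -0.00095 and SDHA gave -0.0033. The causes were not tested. Under the replicate block, 5 genes were higher and 1 lower. NDUFB11 lost its call there (adjusted p = 0.0636) and NDUFB1 gained one, while over all genes 1405 were higher and 1154 lower. Of the values for single named genes, 385 kept direction and side of the threshold, 42 no longer passed, 3 newly passed and 11 changed sign.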
